A study of Danio rerio with 16 samples.

Results

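A set of 8 genes known from surface epithelium was followed in adult zebrafish hearts, namely krt5, epcam, cldnb, cldni, cldn7b, tp63, perp and dsc2l. They were picked by name, after krt5 had been seen to differ between libraries of a single group, and all 8 were found among the 14500 genes with values. RNA sequencing had been done on polyadenylated RNA from hearts of fish aged 6 to 9 months. The groups were WT fish and Tert (AB/hu3430) KO mutants, each either uninjured (control) or taken 3 days after a cryoinjury, a local freezing of the ventricle that kills tissue. Each of the 4 groups held 4 libraries, and each library pooled 3 hearts, so that a library can differ from its neighbours through any of its fish. As background, tert encodes the catalytic subunit of telomerase, and the series title concerns its part in heart regeneration.

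Epithelia are sheets of cells that are tied together at their sides. Keratins form the filaments inside these cells, desmosomes anchor the filaments at the cell border, claudins seal the space between neighbours at tight junctions, and tp63 directs the formation of stratified epidermis. In fish, such cells form the skin and line the gills, mouth and gut, whereas the heart wall is made of muscle, endocardium, connective tissue and the epicardium, a mesothelial covering. The hearts were checked against muscle genes. The myosin light chain genes of heart muscle, myl7 and cmlc1, read 10390 to 24270 and 5150 to 12584 normalized units over the 16 libraries.

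Values are in the deposited normalized units, which are reads scaled by a constant for each library. A single read equalled between 0.06 and 0.196 units, and the libraries held 5611576 to 14831664 reads over the listed genes. Each listed gene had at least 1.76 units in 4 or more libraries, so genes above that level in fewer libraries are not among these values. The members cleared it with 4th highest values of 2.40 units for cldn7b, 2.48 for epcam and 4.07 or more for the other 6. Levels are not compared between genes, because no transcript lengths were used. In bulk hearts, more cells of a type and more RNA per cell cannot be told apart.

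The 8 genes did not form a single pattern. The keratin, the adhesion gene and the 3 claudin genes varied together over the libraries and were highest in KO cryoinjury libraries 2 and 1. tp63 showed the same order inside that group over a smaller range, from a level present in every library. perp was present in all 16 libraries, from 66.4 to 147 units, and had the same order within that group. dsc2l, from 81.2 to 122 units, did not share the order. tp63, perp and dsc2l were thus detected in all libraries, also where epcam and the claudins were at or near 0.

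**Figure D1:**
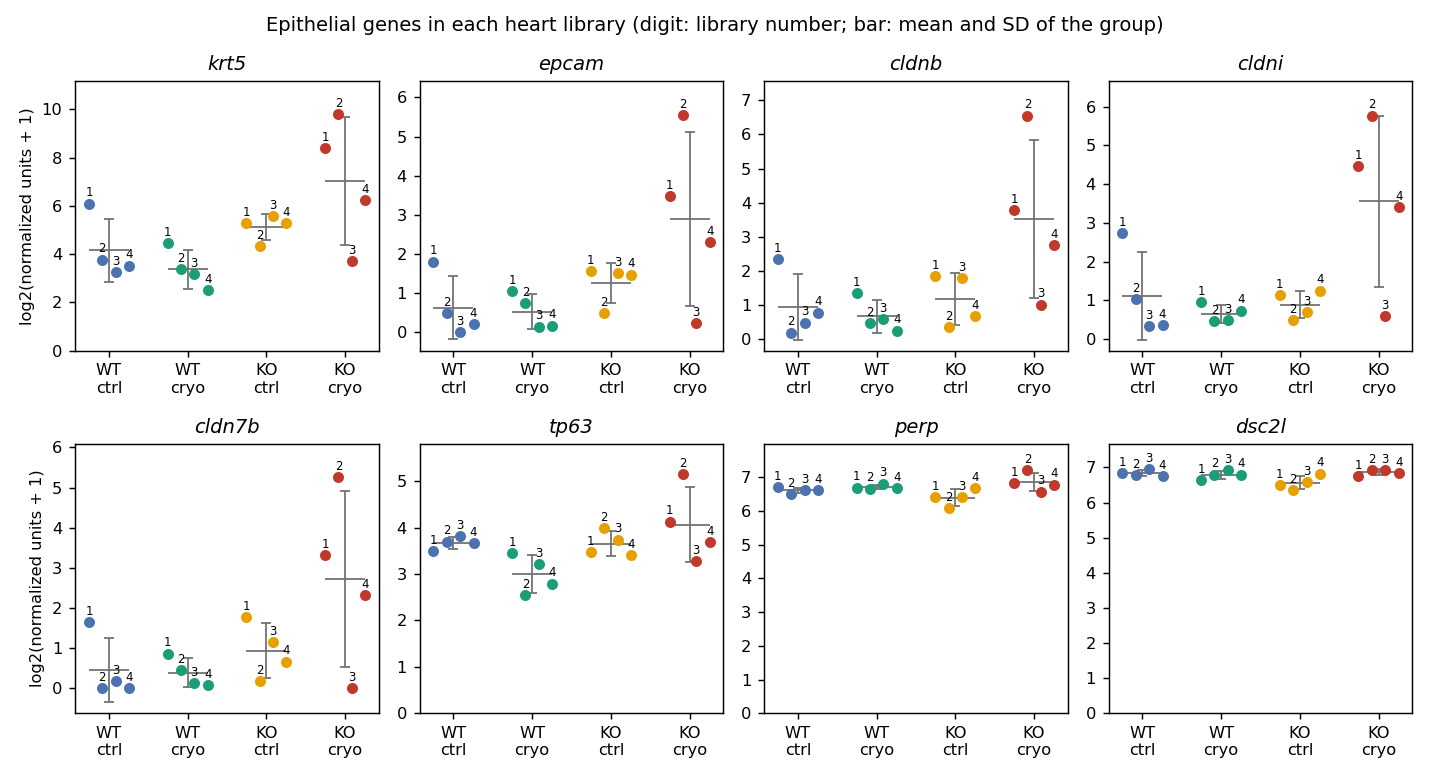
Level of each of the 8 genes in every library, as log2(normalized units + 1), by group; each point is 1 library with its number, and the bar is the group mean with its SD (n = 4). KO cryoinjury libraries 1 and 2 read 337 and 887 units of krt5, above all other libraries, while dsc2l stayed between 81.2 and 122 units in all 16.

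krt5 (ENSDARG00000058371) encodes a type II keratin, which in mammals belongs to the basal epidermis. The WT controls, in order of library number, held 67.4, 12.7, 8.49 and 10.5 units, and the injured WT hearts held 20.9, 9.44, 7.95 and 4.68. The KO controls held 38.1, 19.1, 46.8 and 38.2 units, and the injured KO hearts held 337, 887, 12 and 75.4. The last group thus had the 3 highest libraries of all 16, and another, library 3, that lay within the range of WT hearts. These are the values for which the genes were chosen, and they are given as a description. Library 2 of KO cryoinjury held 6136 krt5 reads, library 1 held 2208, library 4 held 677 and library 3 held 72.

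epcam (ENSDARG00000040534) encodes the epithelial cell adhesion molecule. The injured KO hearts held 10.1, 45.8, 0.167 and 3.90 units in order of library number, and the KO controls 1.95, 0.404, 1.83 and 1.76. The WT controls held 2.48, 0.395, 0 and 0.141 units, and the injured WT hearts 1.06, 0.661, 0.0982 and 0.12. Libraries 1, 2 and 4 of the injured KO hearts lay above all the others, and library 3 lay among the lowest. Outside that group epcam rested on 0 to 14 reads per library, near the limit of what these libraries can show, and the library at 0 allows a level of up to 3 reads.

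The claudin genes, which encode tight junction proteins, repeated that order. cldnb (ENSDARG00000009544) held 12.7, 92.9, 1.00 and 5.68 units in the injured KO hearts and 2.55, 0.269, 2.44 and 0.588 in the KO controls. Its WT values were 4.07, 0.132, 0.386 and 0.702 without injury and 1.52, 0.378, 0.491 and 0.18 with it. Libraries 2, 1 and 4 of the injured KO hearts were the 3 highest of all, and WT control library 1 came next.

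cldni (ENSDARG00000054616) held 21.2, 53.3, 0.501 and 9.58 units in the injured KO hearts and 1.2, 0.404, 0.61 and 1.37 in the KO controls. Its WT values were 5.66, 1.05, 0.257 and 0.281 without injury and 0.938, 0.378, 0.393 and 0.659 with it. Again WT control library 1 ranked 4th, after libraries 2, 1 and 4 of the injured KO hearts. cldn7b (ENSDARG00000014047) held 9, 37.3, 0 and 4.01 units in the injured KO hearts and 2.40, 0.135, 1.22 and 0.588 in the KO controls. Its WT values were 2.12, 0, 0.129 and 0 without injury and 0.821, 0.378, 0.0982 and 0.06 with it. Here KO control library 1 ranked 4th and WT control library 1 ranked 5th. Claudin genes form a family, and reads of close copies may have been split by the counting.

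tp63 (ENSDARG00000044356) was detected in every library, with 49 to 238 reads. It held 16.5, 34.4, 8.68 and 11.9 units in the injured KO hearts and 10.1, 14.9, 12.3 and 9.61 in the KO controls. Its WT values, given with the injury comparison, lay between 4.81 and 13.0. Libraries 1 and 2 were again the highest of all 16, but by far less than for krt5. Library 1 lay 1.9-fold above library 3 (95% counting interval 1.35 to 2.70), where krt5 differed 28-fold (22.2 to 35.9). These exact intervals cover counting error between a pair of libraries and no variation between hearts.

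perp (ENSDARG00000063572) encodes a membrane protein of desmosomes that is a target of p63 in mammals. It held 112, 147, 94.1 and 109 units in the injured KO hearts and 83.6, 66.4, 84.5 and 102 in the KO controls. Its WT values were 103, 89.3, 96.8 and 96.5 without injury and 102, 100.2, 111 and 102 with it. Library 2 of the injured KO hearts stood clear of the rest, and library 1, at 112, barely exceeded WT cryoinjury library 3, at 111.

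dsc2l (ENSDARG00000039677) encodes a desmocollin, a cadherin of desmosomes, which in mammals also join heart muscle cells. It held 106, 120.3, 121 and 114 units in the injured KO hearts and 89.3, 81.2, 95.4 and 112 in the KO controls. Its WT values were 114, 108, 122 and 107 without injury and 98.7, 110.4, 121 and 110.1 with it. Among the injured KO hearts library 1 was the lowest and library 3 the highest, and the 4 lay within the range of the WT hearts.

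Across the whole set, KO cryoinjury libraries 1 and 2 were both above the other 14 libraries in 7 of 8 members, dsc2l being the exception. The same held for 2.87% of all 14500 genes. Since the genes were chosen for this difference, nothing is read from that count.

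The difference between these 2 libraries was uneven across genes. Library 2 exceeded library 1 by 7.34-fold in cldnb (95% counting interval 5.84 to 9.34), by 4.55-fold in epcam (3.48 to 6.03) and by 4.15-fold in cldn7b (3.11 to 5.60). The excess was 2.63-fold in krt5 (2.51 to 2.77), 2.52-fold in cldni (2.06 to 3.08) and 2.09-fold in tp63 (1.66 to 2.65). It was 1.31-fold in perp (1.19 to 1.44) and 1.13-fold in dsc2l (1.02 to 1.25). The intervals of cldnb and cldni do not meet, so these claudins did not keep a fixed ratio between the 2 libraries. cldnb amounted to 3.76% of the krt5 units in library 1 and 10.5% in library 2, whereas cldni amounted to 6.30% and 6.01%. Only the change of each share between the libraries is read, and the shares are not relative transcript amounts.

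Library 4 of KO cryoinjury took a middle place. There krt5 was 6.27-fold above library 3 (95% counting interval 4.92 to 8.11), with 677 against 72 reads, and cldnb 5.67-fold (2.43 to 16.2), with 51 against 6. cldni differed 19.1-fold (6.33 to 94.6) on 86 against 3 reads, and epcam 23.4-fold (3.93 to 948) on 35 against 1. tp63 differed 1.37-fold with an interval of 0.977 to 1.95, a difference not detectable at this depth. Calling libraries 1 and 2 high and libraries 3 and 4 low thus leaves out that library 4 ranked 3rd of 16 in krt5, epcam and all 3 claudins.

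Smaller differences of the same kind were present in the other groups. Among the WT controls, library 1 was the highest in krt5, epcam, cldnb, cldni and cldn7b, and it was the lowest in tp63. WT cryoinjury library 1 was the highest of its group in the same 5 genes. In KO control hearts, library 2 was the lowest of its group in all 5. Over the 12 libraries outside KO cryoinjury, the Pearson correlations of log2(value + 1) among these 5 genes were 0.67 to 0.94 (10 pairs, Spearman's rho 0.36 to 0.91). The same 5 genes had correlations of 0.035 to 0.39 with tp63, -0.24 to 0.20 with perp and -0.37 to 0.083 with dsc2l. The 12 points come from 3 groups and most rest on few reads, so these values are a description without a test.

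With KO cryoinjury libraries 3 and 4 added, the correlations among the 5 genes over 14 libraries were 0.76 to 0.95 (rho 0.50 to 0.93). Over all 16 libraries they were 0.93 to 0.99 (rho 0.66 to 0.95), and those with tp63 were 0.69 to 0.77 (rho 0.32 to 0.59). For perp they were 0.51 to 0.69, and for dsc2l 0.02 to 0.24. The tp63 and perp values over 16 libraries thus rest on KO cryoinjury libraries 1 and 2.

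**Figure D2:**
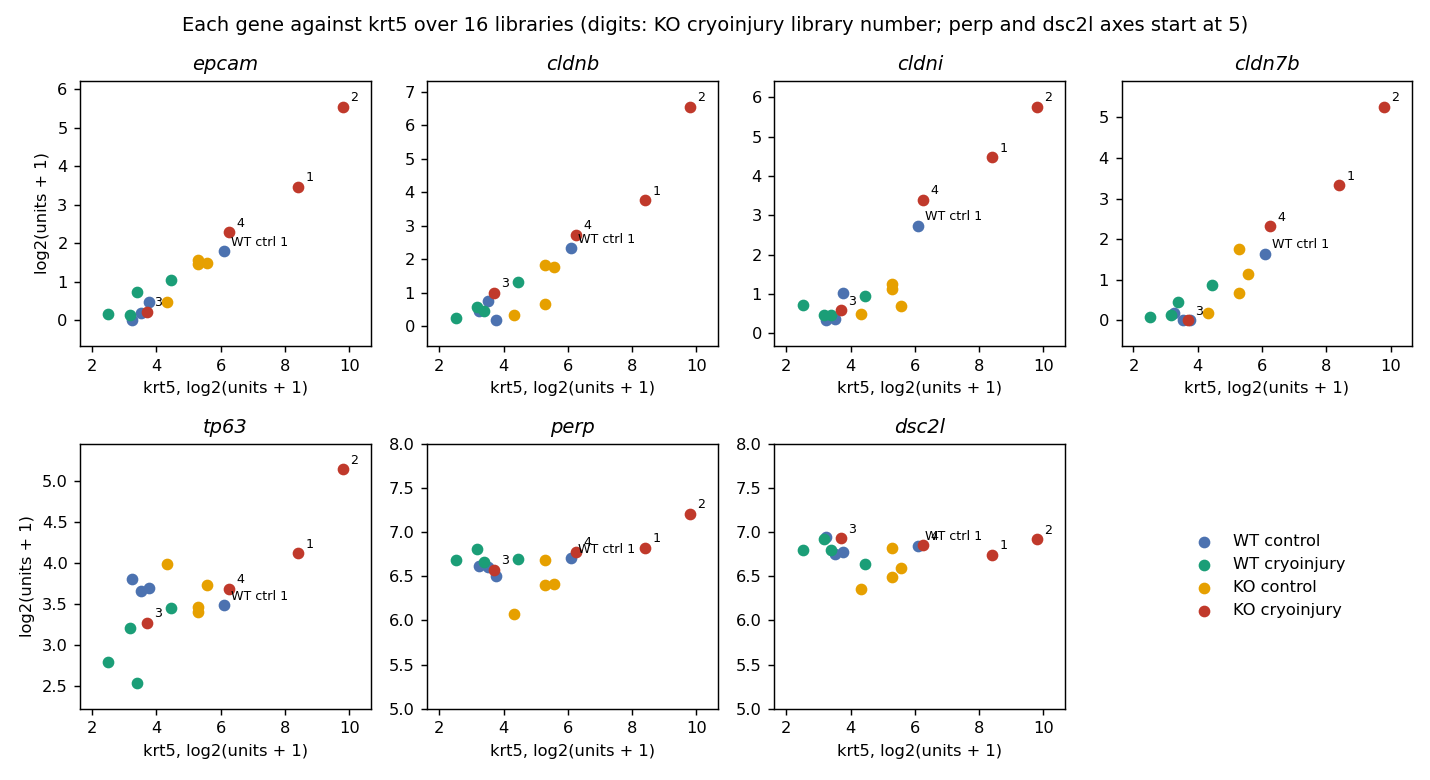
Each of the other 7 genes against krt5 over the 16 libraries, both as log2(normalized units + 1); each point is 1 library, coloured by group, with the KO cryoinjury libraries numbered and WT control library 1 marked. epcam and the claudins climb with krt5 from WT control library 1 through KO cryoinjury libraries 4, 1 and 2. tp63 rises above its range in the other libraries only in the last 2, and dsc2l stays level.

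Injury in WT hearts is a comparison that leaves out the libraries for which the genes were chosen. It was tested with limma over the 8 WT libraries, with p-values adjusted over 14500 genes. Of the 8 members 1 was called, tp63, beside 46.2% of all genes called in either direction. tp63 fell: the 4 control libraries held 10.3, 11.99, 13.0 and 11.7 units, and the 4 injured ones 9.97, 4.81, 8.25 and 5.94. The 4 injured libraries all lay below the 4 controls, by a narrow margin at the nearest pair, and 43.2% of all genes had groups without overlap. The means ± SD were 11.7 ± 1.13 and 7.24 ± 2.31 (n = 4), a log2 change of -0.67 (SE 0.19, limma adjusted p = 0.0125). This fall is relative to the scaling between libraries. With library totals alone the change was -0.35 and was not called (limma adjusted p = 0.148), nor was it with all 16 libraries in the fit (limma adjusted p = 0.0724). Over all alternatives the adjusted p ranged from 0.00334 to 0.148.

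None of the other 7 members was called after injury in WT hearts. krt5 was 24.8 ± 28.5 units in control and 10.7 ± 7.05 in injured hearts (SD, n = 4; log2 change -0.78, SE 0.57, limma adjusted p = 0.289). That value rests largely on WT control library 1, without which the change was -0.14 (limma adjusted p = 0.788). epcam (-0.10), cldnb (-0.29), cldni (-0.46) and cldn7b (-0.07) had limma adjusted p of 0.442 to 0.899. Without WT control library 1 all 4 turned to small positive values, 0.29, 0.18, 0.08 and 0.33, with limma adjusted p of 0.352 to 0.826. perp (0.10, SE 0.07) and dsc2l (-0.04, SE 0.08) had narrow errors and changes near that of the median gene, -0.01. With library totals alone both were higher after injury, by 0.46 and 0.31 (limma adjusted p = 0.000363 and 0.00469), a scaling that moves the median gene to 0.305.

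The effect of genotype in control hearts also leaves out the injured KO libraries. No member was called with limma, with 1 of 8 at an unadjusted p under 0.05 (dsc2l), and neither edgeR nor DESeq2, which gave an adjusted p for 4 of them, called any. Of all genes 0.503% were called, 0.138% higher and 0.366% lower in KO, and the libraries of 0 of 8 members were free of overlap, beside 7.73% of all genes. krt5 read 35.6 ± 11.7 units in KO control and 24.8 ± 28.5 in WT control (SD, n = 4; log2 difference 0.96, SE 0.52, limma adjusted p = 0.461). All 4 KO control libraries, at 19.1 to 46.8, lay above WT control libraries 2 to 4, at 8.49 to 12.7, and below WT control library 1, at 67.4. Without WT control library 1 the difference was 1.61 (limma adjusted p = 0.0708). epcam differed by 0.64 (SE 0.39), cldn7b by 0.49 (SE 0.42), cldnb by 0.22 (SE 0.48) and cldni by -0.23 (SE 0.46), with limma adjusted p of 0.513 to 0.893. The tp63 difference was within its error (-0.01, SE 0.15, limma adjusted p = 0.987), and those of perp (-0.21, SE 0.12) and dsc2l (-0.26, SE 0.10) had limma adjusted p of 0.473 and 0.288.

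The comparisons that hold KO cryoinjury are those from which the genes were chosen, so their differences are a description. Injured KO hearts exceeded KO controls by 1.91 in krt5 on the log2(value + 1) scale, by 1.63 in epcam, by 2.36 in cldnb, by 2.67 in cldni and by 1.78 in cldn7b. Without KO cryoinjury libraries 1 and 2 these differences were -0.14, 0.00, 0.71, 1.1 and 0.22. The tp63 difference was 0.41 with and -0.17 without them, that of perp 0.45 and 0.28, and that of dsc2l 0.29 and 0.32. limma called 3 of 8 members higher (cldni, perp and dsc2l) beside 23.4% of all genes (20.1% lower, 43.5% in either direction), and the libraries of no member were free of overlap, beside 40.5% of all genes. Nothing is read from these counts. Without the 2 libraries, in a fit of the other 14, dsc2l alone was called.

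Against injured WT hearts, injured KO hearts differed by 3.66 in krt5, 2.37 in epcam, 2.86 in cldnb, 2.90 in cldni and 2.34 in cldn7b on the log2(value + 1) scale. tp63 differed by 1.06, perp by 0.14 and dsc2l by 0.07. limma called none of the 8, beside 0.172% of all genes (0.0759% higher), although 6 had an unadjusted p under 0.05. edgeR on recovered reads called none, and DESeq2 called 5. Without KO cryoinjury libraries 1 and 2, in a fit of the other 14, the differences were 1.60, 0.74, 1.22, 1.34 and 0.78 in the same order. They were 0.48 in tp63, -0.04 in perp and 0.10 in dsc2l, and none was called. The libraries of 0 of 8 members were free of overlap, beside 7.86% of all genes, and nothing is read from these counts. Library 3 of KO cryoinjury, taken alone, read 12 units of krt5, inside the WT cryoinjury range of 4.68 to 20.9, and library 4 read 75.4, above it. The comparisons share libraries and are not independent of each other.

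**Figure D3:**
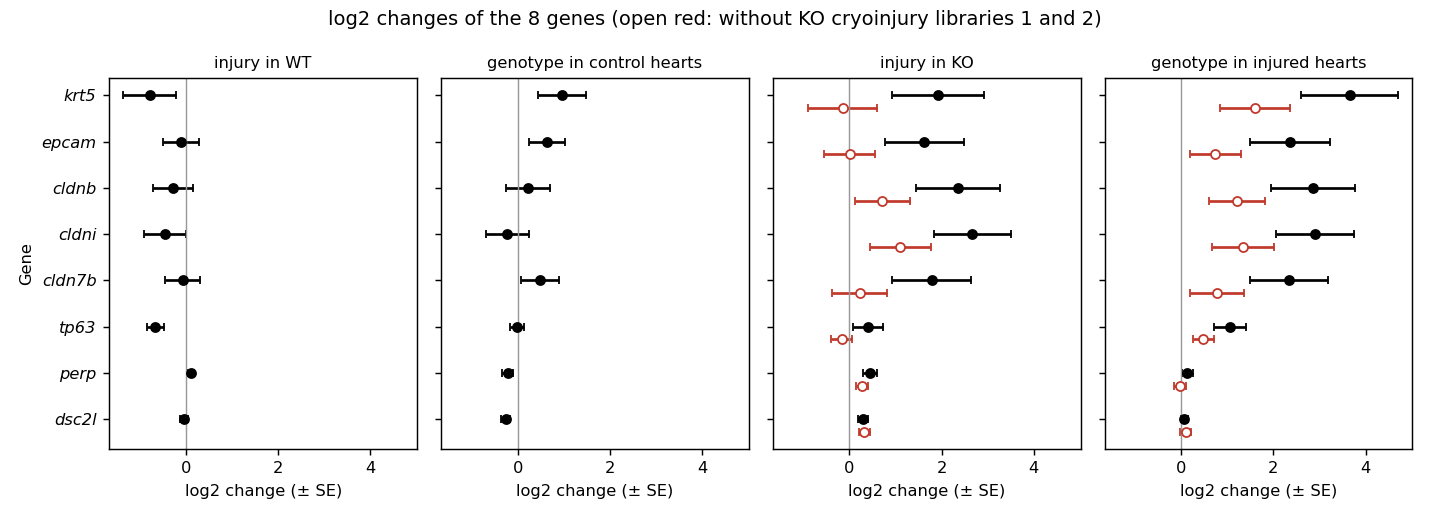
log2 change (± SE) of the 8 genes in the 4 comparisons, from limma on log2(value + 1), with the 8 libraries compared (black, filled). For the comparisons with KO cryoinjury, changes without libraries 1 and 2 of that group are added (red, open). These come from a fit of the other 14 libraries, so their errors also draw on groups not compared and are not like those in black. In injured KO hearts the krt5 difference went from 1.91 to -0.14 when these libraries were left out, while dsc2l went from 0.29 to 0.32.

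Other genes of surface epithelium were looked up beside the members. Among genes of desmosomes and plakins 5 of 15 names had values, and among surface adhesion and protease genes 4 of 18. In these, the plakophilin gene pkp3a, whose product binds desmosomal cadherins, read 14.8, 45.1, 0.668 and 5.01 units in KO cryoinjury libraries 1 to 4, against 0.257 to 3.40 in the other 12 libraries. The desmoglein gene dsg2.1 read 32.0, 69.4, 26.4 and 17.4 against 8.82 to 21.8. spint1b, a Kunitz inhibitor of the surface protease matriptase, read 5.34, 19.2, 1.34 and 2.90 against 0.141 to 1.89. By contrast pkp2, a plakophilin of heart muscle junctions in mammals, read 15.7, 17.3, 19.0 and 20.5 against 12.5 to 26.5, and pkp4 spanned 9.01 to 12.3 over all libraries. ctnnd1 read 54.4, 66.5, 45.6 and 54.9 against 38.9 to 55.9. Both ctnnd1 and mpzl2b had their highest value of all in library 2, but not their next highest in library 1. Libraries 1 and 2 were both the highest of 16 in 2 of the 5 desmosome genes and in 1 of the 4 adhesion genes, beside 2.87% of all genes. The names jupa, jupb and pkp1b matched no identifier and are not in that count, while jup and pkp1, which carry other symbols in the table, were found by the ranking given further on. The members were chosen for their difference in libraries 1 and 2, and the lists were made with earlier results known. A low gene can also reach the level needed for listing partly through these libraries. Nothing is therefore read from such counts, here or in the lists below. After injury in WT hearts dsg2.1 rose (0.49) and pkp2 fell (-0.47), and of the adhesion genes ctnnd1 (0.30) and mpzl2b (1.32) rose and spint2 fell (-1.29).

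Genes by which basal epidermal cells hold to the basement membrane were looked up in the same way. Of 20 names 11 identifiers had values, and in 4 of them libraries 1 and 2 were the highest of 16, beside 2.87% of all genes. col17a1b, for the collagen of hemidesmosomes, read 21.2, 12.6, 0.334 and 7.02 units in KO cryoinjury libraries 1 to 4, against 0 to 4.07 in the other 12. The integrin genes itga6b and itgb4 read 28.2, 37.1, 19.4 and 15.5 and 33.1, 39.6, 20.03 and 22.3, against 7.001 to 15.2 and 12.1 to 28.8. col17a1b was higher in library 1 than in library 2, the reverse of epcam and cldnb. In WT hearts 4 of the 11 rose with injury (bcam, pleca and a copy of cd151 among them) and plecb fell (median of the list 0.14), beside 24.4% and 21.8% of all genes, whereas krt5 was not called. plecb held 468 and 430 units in libraries 1 and 2, below the 479 to 814 of the 12 libraries outside the group. The genes pkp1a, itgb4, the risen copy of cd151, krt4, krt18b, krt91, krt93, icn, f11r.1, cldn7a, wt1b, upk1a and mmp13a are named after their values were seen.

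Other keratins were mixed. Of 22 names of other keratins and related filament genes 10 had values, and after injury in WT hearts 6 rose and 1 fell (median 0.65, all genes -0.01), beside 24.4% higher and 21.8% lower of all genes. krt8 rose from 1574 to 1824 units in WT control to 3335 to 3459 in WT cryoinjury, and krt18a.1 from 191 to 233 to 650 to 843. krt94 was not called and read 1488 to 2051 in WT control and 1490 to 1918 in WT cryoinjury. krt15 rose from 509 to 728 to 704 to 1047. Of the 10, only krt93 was highest in KO cryoinjury libraries 1 and 2, at 2.90 and 5.64 units against 0.527 to 2.70 outside the group. The 6 that rose were krt4, krt8, krt15, krt18a.1, krt18b and icn, while krt91 fell and krt5 was not called. Whether their changes differ from that of krt5 was not tested. Keratin genes are close copies, and reads may have been shared between them.

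Other tight junction genes were mixed. Of 42 names 8 had values, and after injury in WT hearts 5 rose and 2 fell (median 0.73), beside 24.4% higher and 21.8% lower of all genes. They included cldn12 (0.39), cldnc (2.09, named cldn3d in the reference) and cgna (1.07), which rose, and tjp1b, from 19.5 to 28.8 units in WT control to 24.2 to 33.6 in WT cryoinjury, which was not called. In this list f11r.1, for the junctional adhesion molecule, was the gene with libraries 1 and 2 highest, at 19.7 and 33.2 units against 2.06 to 13.6 outside the group. The claudin nearest by name, cldn7a, fell in WT hearts from 4.07 to 6.72 units to 1.52 to 1.8 (log2 change -1.23), and read 4.73 and 2.46 in KO cryoinjury libraries 1 and 2. It did not share the pattern of cldn7b.

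Among epithelial regulators 3 of 20 names had values. grhl1, of the grainyhead family of epithelial transcription factors, read 7.62, 20.8, 2.5 and 4.57 units in KO cryoinjury libraries 1 to 4, against 2.25 to 10.5 elsewhere. tfap2c read 12.7, 18.4, 5.67 and 10.6 against 6.71 to 12.2. klf17 fell after injury in WT hearts (-0.63), the only call of the list, and read 48.6 and 41.2 in libraries 1 and 2, inside the 37.8 to 97.6 of the 12 others. In control hearts limma called no gene of the lists named so far for genotype.

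Markers of other cell types in skin and nearby organs were looked up beside these results. Of 14 ionocyte and gill names 11 matched an identifier, of 7 mucous cell names 7 and of 10 gut names 8, and none of the matched identifiers was among the 14500 genes. The unmatched names could not be looked up. Absence from these values does not show absence from the hearts. Genes that reach the level for listing in fewer than 4 libraries are left out, and some identifiers may be missing from the Zv9 build. The single pigment cell gene of 14 names, slc24a5, read 2.13 to 3.23 units in KO cryoinjury and 4.17 to 8.45 in the other 12 libraries. It was called lower in injured KO than in injured WT hearts (-1.01, limma adjusted p = 0.0462), beside 0.0966% of all genes called lower. That call was close to the threshold of 0.05. With any single WT cryoinjury library left out, 1 of 14500 genes was called lower, against 14 with all 8 libraries. Whether slc24a5 stayed called was not tested. The summed level of 4 genes of scale, bone and fin dermis was 37.2 and 20.5 units in KO cryoinjury libraries 1 and 2, within a range of 16.97 to 36.5 in WT cryoinjury for the second and just above it for the first; 3 rose and 1 fell after injury in WT hearts (median 1.46), beside 24.4% and 21.8% of all genes. For liver and pancreas the sum of 3 genes was 160 and 127 units in the 2 libraries, against 71.8 to 226 in WT cryoinjury, with 1 rise and 1 fall in WT hearts (median -0.55). The lymphocyte gene cd4-1, the only one of 12 names with values, rose in WT hearts (1.31) and read 2.29 and 2.17 units in the 2 libraries. None of these lists had a gene with both libraries highest. Their part in the result was not tested.

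Epicardial genes mark the heart's own covering sheet. Of 11 names 6 had values, with a summed level of 979 and 1066 units in KO cryoinjury libraries 1 and 2 and 979 to 1213 in that group as a whole, against 1107 to 1275 in WT cryoinjury. That sum is made up mostly of podxl and aldh1a2, and in none of the 6 were both libraries the highest of 16. wt1b held 41.6, 67.4, 39.2 and 56.9 units in the injured KO hearts and upk1a 2.29, 8.82, 1.00 and 1.89, each with its highest value of all in library 2. In WT hearts 4 rose with injury and 1 fell (median 0.82), beside 24.4% and 21.8% of all genes. tcf21 was higher in KO control than WT control (0.63, limma adjusted p = 0.0406), and was the only gene of all the lists called for genotype in control hearts. Genes called higher there numbered 20 with all 8 libraries and 3 to 38 with single libraries left out. Whether tcf21 stayed called was not tested.

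Of 17 names of wound epidermis genes of fish, 7 had values and 7 rose after injury in WT hearts (median 1.2), beside 24.4% of all genes. Among them the gelatinase gene mmp9 read 8.45 to 27.9 units in WT cryoinjury and 106, 442, 21.7 and 39.6 in KO cryoinjury libraries 1 to 4. The collagenase gene mmp13a read 2.45 to 9.26 and then 14.2, 212, 10.3 and 4.45. Both were highest in libraries 1 and 2. The S100 genes s100a10b, s100v2 and s100u of the list were not highest in both, at 752 and 838, 71.4 and 98.4, and 48.5 and 46.0 units, beside 816 to 910, 65.8 to 79.2 and 66.7 to 78.4 in WT cryoinjury. For genotype in injured hearts s100u was called lower in KO (-0.52, limma adjusted p = 0.0476), beside 0.0966% of all genes called lower. This call too was close to the threshold, and whether it held without single libraries was not tested. In control hearts the s100u difference had the same sign, at -0.44, and was not called (limma adjusted p = 0.0671). Whether the genotype difference of s100u depends on injury was not tested. Both mmp genes are also known from white blood cells, and their part in the result was not tested.

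The genes most like the members were then ranked over all 9524 genes with a symbol of their own and a mean of at least 1 unit, by Pearson correlation of log2(value + 1) with the mean of the 8 members over the 16 libraries. The first 15 had correlations of 0.78 to 0.96, and KO cryoinjury libraries 1 and 2 were the highest in all 15. Without those libraries, over 14, the correlations were 0.17 to 0.84, so for most of the 15 the likeness rests on them. It was strongest over the 14 libraries in col17a1b (0.84), fat2 (0.80), pkp3a (0.78), ms4a17a.4 (0.70) and aqp3 (0.68). The ranking is a description of these libraries.

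The leading gene, fat2, encodes a giant cadherin and read 13.3, 24.0, 1.17 and 4.34 units in KO cryoinjury libraries 1 to 4, against 1.37 to 3.01 in the other 12. ms4a17a.4, of a family of membrane proteins, read 17.4, 99.6, 0.334 and 10.1 against 0.269 to 2.11. aqp3, a water and glycerol channel of mammalian skin, read 18.3, 32.2, 5.01 and 9.91 against 1.29 to 4.77. The ordering of the 4 libraries in these genes was that of krt5.

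The other genes of the ranking included 4 for junction or adhesion proteins. pkp1, another plakophilin, read 38.6, 53.3, 1.84 and 6.68 units in the 4 libraries against 0.395 to 7.27, and the plakoglobin gene jup 157, 203, 140 and 147 against 113 to 142. nectin4a, for an adhesion protein, read 3.05, 15.5, 0.668 and 2.00 against 0.392 to 1.88. The cadherin gene cdh26.2 read 5.34, 8.24, 1.17 and 4.01 against 1.04 to 4.50. The remaining genes were spint1b and itga6b, described above, the Notch ligand gene jag1a (5.64 and 9.11 in libraries 1 and 2, at most 1.98 outside the group), the triglyceride synthesis gene dgat1 (4.73 and 12.3, at most 2.74), frmd1 (7.01 and 18.4, at most 5.39) and the semaphorin gene sema6d (4.27 and 8.09, at most 3.75).

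**Figure D4:**
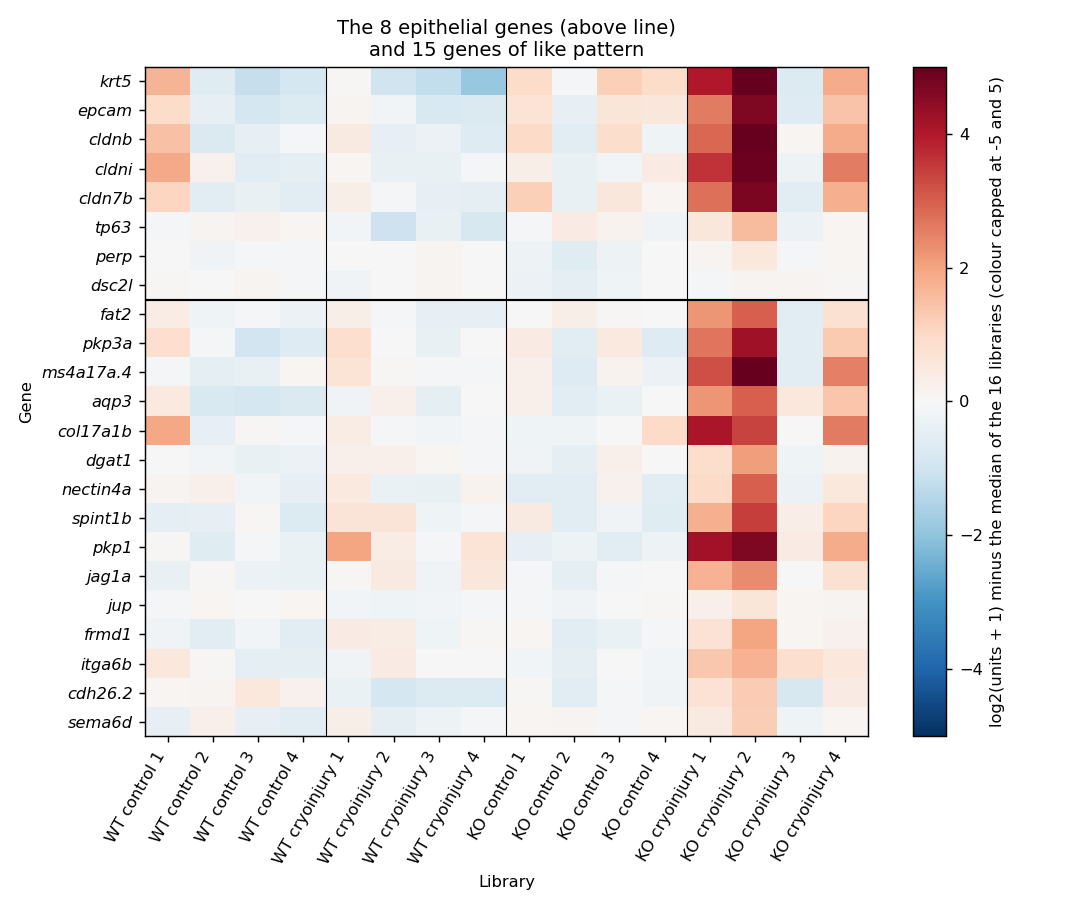
log2(normalized units + 1) of the 8 members (above the line) and of the 15 genes most like them (below), minus each gene's median over the 16 libraries; rows are genes, columns are libraries, red is higher and blue lower. KO cryoinjury libraries 1 and 2 are the highest in every one of the 15 lower rows and in 7 of the 8 upper rows, with library 4 of that group and WT control library 1 in paler red for krt5, epcam and the claudins.

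Heart muscle genes were lower in libraries 1 and 2 of KO cryoinjury than in libraries 3 and 4. myl7 read 11480 and 10390 units in libraries 1 and 2 and 12889 and 13794 in libraries 3 and 4, and cmlc1 read 5150 and 5637 against 7655 and 8040. In WT cryoinjury they spanned 11093 to 12372 and 5454 to 6245. The marker actc1a read 11864 and 12942 against 17874 and 18559, beside 13454 to 14399 in WT cryoinjury. In myl7, cmlc1 and actc1a, libraries 3 and 4 thus lay above the WT cryoinjury range, and libraries 1 and 2 inside or below it. The marker nppa read 2241, 2832, 3326 and 3315 in libraries 1 to 4, beside 2793 to 4006 in WT cryoinjury. The part of a different mix of tissue in the epithelial values was not tested, and with 3 hearts in each library the fish that contributed cannot be told apart.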

How the data were processed

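Polyadenylated RNA of 16 heart libraries was sequenced after TruSeq RNA v2 preparation, per the labels' protocols. The authors deposited a normalized signal for 14500 genes. The submitters' processing notes name Zv9 as the build and, as tools, RSEM 1.2.3, CASAVA 1.8.2 and cutadapt, without their roles. How values were scaled is not given in the sources here. Dividing each library by its smallest step gave whole reads, within 0.01 read, for 100% of values. The count test on these reads (edgeR) is an alternative, and called 3369 genes higher and 2906 lower for injury in KO.

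The members and lists were chosen with earlier results of these data known. Symbols came from a reference table (11702 identifiers matched; of 247 list names 62 have values) and RefSeq synonyms. The labels call the libraries biological replicates.

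limma 3.58.1 in R 4.3.3, with a trend of variance on level, was run on log2(value + 1) and fitted to the 8 libraries compared, so that the spread in KO cryoinjury does not enter the comparisons without it. Adjusted p follow Benjamini and Hochberg over all genes, and calls are at an adjusted p under 0.05. Fold changes on this scale understate those of low genes. The fit was first tested on simulated data. Named genes are the members, the 15 of like pattern, and from each list the 4 with the highest mean; others were named after their values were seen. Ratios between libraries have exact binomial 95% intervals, and floors are 3 counts. Between libraries of a group chi-square per degree of freedom was 6.85 to 19.2, so none was a copy. Alternatives used DESeq2 1.42.0 and edgeR 4.0.16.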

Additional observations from a re-analysis of the deposited data

Results flagged for a closer look

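Within groups of 4 libraries, 7 values in normalized units were set apart by Dixon's test at its 95% critical value. The test sets the gap to the nearest library against the range of the group. It was run on these units and not on log2(value + 1), the scale of the limma fits, and a high value stands out more in units. Whether the 7 values stay set apart on the log2 scale was not tested. Chance flags about 1 in 20 groups, and the members are not independent of each other. WT control library 1 was set apart in 5 genes, krt5 at 67.4 units, epcam at 2.48, cldnb at 4.07, cldni at 5.66 and cldn7b at 2.12. KO control library 2 was set apart below its group in epcam, at 0.404 units. The members were chosen for their differences within KO cryoinjury, so a value set apart there is a description and no test. In that group library 2 was set apart in cldnb, at 92.9 units, whereas its krt5 value of 887 was not, where library 1 was also high.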

How the results depend on the processing

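Member counts depended on the setting mainly where KO cryoinjury was involved. For injury in WT, 1 member was called, 0 with all 16 libraries in the fit, and 2 with library totals alone (perp and dsc2l, both higher); leaving out single libraries gave 1 throughout. No member was called for genotype in control hearts under any alternative. For injury in KO, 3 were called, 7 by edgeR, 6 by DESeq2 and 1 without KO cryoinjury libraries 1 and 2; leaving out single libraries gave 0 to 6, with 0 without KO control library 2 or 3 or KO cryoinjury library 2, 1 without KO control library 1 or KO cryoinjury library 1, and 6 without KO cryoinjury library 3. For genotype in injured hearts, 0 were called, 5 by DESeq2, and 0 to 2 without single libraries (2 without KO cryoinjury library 3). The cause was not tested.

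Replicate numbers were not taken to pair the libraries, since in no comparison were all 4 correlations over 0.1. Same-numbered libraries deviated together with correlations of -0.05 to 0.19, and 0, 4, 7 and 2 of 8 libraries in the 4 comparisons correlated best with their own number, the 7 being for injury in KO, a hint from the data and not from the design. With the number as a replicate block, 2 members were called for injury in WT (tp63 and krt5, the latter at -0.78, limma adjusted p = 0.0296).

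Directions of uncalled values changed sign near 0. With library totals the WT injury values were 0.01 for cldn7b, 0.31 for dsc2l and 0.00 for epcam, and tp63 for genotype in control hearts was 0.04 (0.02 in edgeR, 0.01 in DESeq2). Leaving out single libraries gave, for injury in WT, -0.54 to 0.18 in cldnb, -0.23 to 0.33 in cldn7b, -0.09 to 0.01 in dsc2l, -0.31 to 0.29 in epcam and -0.72 to 0.08 in cldni. For genotype in control hearts it gave -0.04 to 0.68 in cldnb, -0.13 to 0.07 in tp63 and -0.49 to 0.31 in cldni. Of 539 single-gene alternatives 492 were counted as unchanged. In the comparisons without KO cryoinjury, that meant the same sign and the same side of the threshold. In those with KO cryoinjury, it meant only a log2 change moved by less than the SD within groups, so calls there could differ. Outside KO cryoinjury epcam and the claudins rest on 0 to 32 reads a library, which limits what could be detected.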
